A study of Caenorhabditis elegans with 40 samples.

Results

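Caenorhabditis elegans carrying age-1(hx546) were compared with the wild type strain N2 while both were exposed to RNA interference (RNAi) against repo-1, and 1462 of the 12327 genes tested differed. The comparison held 8 of the 40 whole-body RNA-seq libraries of the series, 4 of each genotype, chosen by the genotype and treatment that the labels give. The question was what the mutant still changes when repo-1 is knocked down in both genotypes. The mutant strain is TJ1052 and both groups were treated since hatching and collected on day 1 of adulthood. The same strains on an empty vector, 4 libraries each, gave the mutant's effect without the knockdown. The mutants eat-2(ad1116), raga-1(ok386) and clk-1(qm30) on repo-1 RNAi, 4 libraries each, were used as a further comparison. Each mutant is 1 strain, and the labels name no outcross or second allele. Whether the 4 libraries of a group are separate cultures is not in the labels, and the p-values speak only of spread among libraries. For single genes, that spread was pooled within groups over all 40 libraries of the series, not taken from the compared groups alone. In a fit of the 8 compared libraries alone, 642 genes differed. Values are normalized read counts, and a value after ± is the standard error (SE) of a log2 fold change, with n = 4 per group. A gene was called when its p from limma, adjusted by Benjamini and Hochberg's method over all genes tested, was under 0.05.

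AGE-1 is the catalytic subunit of the phosphoinositide 3-kinase that passes the signal of the insulin receptor DAF-2 to the kinases AKT-1 and AKT-2. When the pathway is active, the AKT kinases keep the forkhead transcription factor DAF-16 out of the nucleus. When it is weak, as in age-1 mutants, DAF-16 enters the nucleus, genes of stress defence and fat and sugar metabolism are expressed more, and the animals live longer. REPO-1 is a component of the U2 particle of the spliceosome that takes part in recognition of the branch point, and the series concerns the part of splicing factors in the long life of mutants.

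Of the 4 age-1 libraries on RNAi, replicates 1 and 2 stood apart, and they also differed from each other. On the first principal component of the 8 libraries, which held 39.0% of the variance, they lay at 57.9 and 22.5, replicates 3 and 4 at 0.77 and -4.14, and the wild type libraries between -21.2 and -16.8. Replicate 1 was the shallowest, with 8.11 M reads, and the 4 age-1 libraries reached 19 M reads against 18 to 21.3 M reads in wild type. The median of the 80 ribosomal protein genes relative to wild type was 0.32 and 0.22 in replicates 1 and 2 and -0.01 and -0.11 in replicates 3 and 4 on the log2 scale. The labels give the replicate number as the batch, and the wild type libraries of batches 1 and 2 did not stand apart in this way. Counts of gene lists are therefore given also without age-1 replicates 1 and 2, an alternative chosen after seeing the data. In that setting 501 of the 12327 genes tested were called, 329 higher and 172 lower, against 1462 with all libraries. A loss of calls in a list is to be read beside this drop over all genes. Defining markers of intestine, body wall muscle, neurons, hypodermis, pharynx, germline and sperm were all present, as whole animals should hold them.

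**Figure D1:**
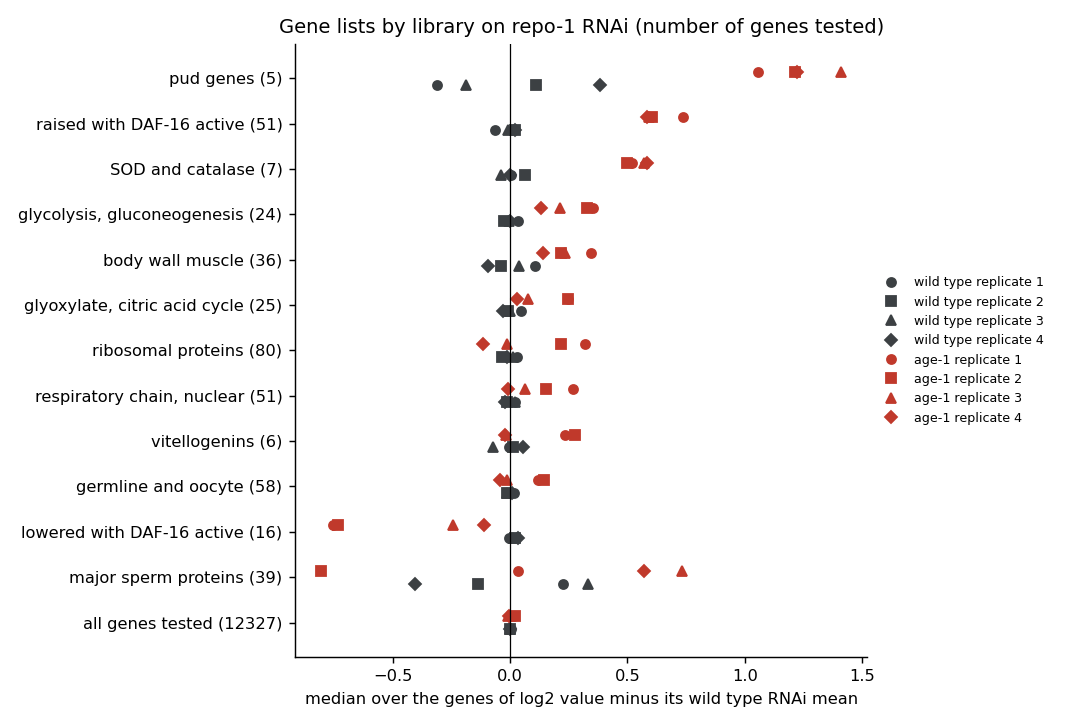
Median over the genes of a list of the log2 value minus the mean of the wild type RNAi libraries, for each of the 8 libraries on repo-1 RNAi. Red points are age-1 and dark points wild type, the marker shape gives the replicate, and the number of genes tested is in brackets. The pud genes, the list raised with DAF-16 active and the SOD and catalase genes lie above wild type in all 4 age-1 libraries. Ribosomal proteins and vitellogenins do so in replicates 1 and 2. The pud genes, sod-3 and the catalase genes are also on the list raised with DAF-16 active.

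The target of the RNAi, repo-1 (WBGene00008683, IV:12084478-12085320, WBcel235, plus strand), was reduced in both genotypes. Wild type animals had 815, 826, 826 and 889 normalized counts on empty vector and 310.3, 314, 342 and 307 on RNAi, a log2 fold change of -1.4 ± 0.087. In age-1 animals the counts were 771, 859.9, 798 and 792 on empty vector and 471, 367, 323 and 331 on RNAi, a change of -1.12 ± 0.087. The groups with and without RNAi did not overlap in either genotype. On RNAi, repo-1 was 0.21 ± 0.087 higher on the log2 scale in age-1 than in wild type, which did not pass the test (adjusted p = 0.104), and the difference was 0.04 without replicates 1 and 2. The size of the knockdown differed between the genotypes by 0.27 with a 95% confidence interval of 0.02 to 0.52, and this difference did not pass adjustment (adjusted p = 0.847).

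The mutated gene itself, age-1 (WBGene00000090, II:11519328-11527054, minus strand), had 1368, 1666, 2104 and 2343 counts in the mutant on RNAi and 2239, 2449, 1901 and 2101 in wild type. The groups overlapped and the log2 fold change of -0.24 ± 0.11 was not called (adjusted p = 0.142). Its sign turned to 0.04 without replicates 1 and 2. The labels do not say what hx546 changes in the gene, so its read count does not check the genotype.

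Of the 39 genes on the list of insulin pathway components and partners, 34 were measured above the minimum, and 7 rose and 3 fell in age-1 on RNAi. The list median was 0.03 on the log2 scale, against -0.0012 over all genes, and it was -0.03 under quantile normalization. In the whole comparison 11.9% of the genes tested were called, 7.29% higher and 4.57% lower. Without replicates 1 and 2 the list held 2 rises and 2 falls. On empty vector 2 members rose and 2 fell.

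The member with the smallest adjusted p was akt-2, 1 of the paired AKT kinases below AGE-1. It had 182, 227, 255 and 252 counts in age-1 and 131, 139, 137 and 141 in wild type. All mutant libraries lay above all wild type libraries, with a log2 fold change of 0.72 ± 0.11 (1.65-fold, adjusted p = 2.4e-05). On empty vector akt-2 rose by 0.92. The insulin receptor substrate homolog ist-1 rose by 0.53 ± 0.12 on RNAi (adjusted p = 0.00209) and by 0.62 on empty vector, but without replicates 1 and 2 its RNAi change of 0.41 was not called. Smaller rises were called for rict-1, the Rictor subunit of a TOR complex, at 0.23 ± 0.042 (adjusted p = 0.000158), and for daf-2, akt-1, the 14-3-3 protein gene ftt-2 and the stress factor skn-1, at 0.13 to 0.20. The deacetylase sir-2.1, the deubiquitinase math-33 and the kinase jnk-1 fell, by 0.27, 0.16 and 0.74 on the log2 scale. Of these, rict-1 and jnk-1 kept their calls without replicates 1 and 2.

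The counts of daf-16 were 2946, 3113, 2812 and 2791 in age-1 and 3007, 2980.4, 2904 and 2871 in wild type. The groups overlapped and the log2 fold change was -0.01 ± 0.054, with an interval that held 0 and an adjusted p of 0.908. The phosphatase gene daf-18, which opposes AGE-1, differed by 0.06 ± 0.038 and was not called, and its sign turned to -0.07 under quantile normalization. unc-31, needed for release of dense-core vesicles, could not be judged, because wild type replicate 2 had 1675 counts and the other 7 libraries 48.101 to 66.5. Among insulin-like peptides, 16 of 40 were above the minimum, and ins-27 and ins-24 rose, while 1 rose without replicates 1 and 2. ins-27 had 77.3, 85.1, 73.3 and 62.5 counts in age-1 against 28.3, 27.7, 34.8 and 37.8 in wild type, which did not overlap (log2 1.19 ± 0.21, adjusted p = 9.33e-05).

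**Figure D2:**
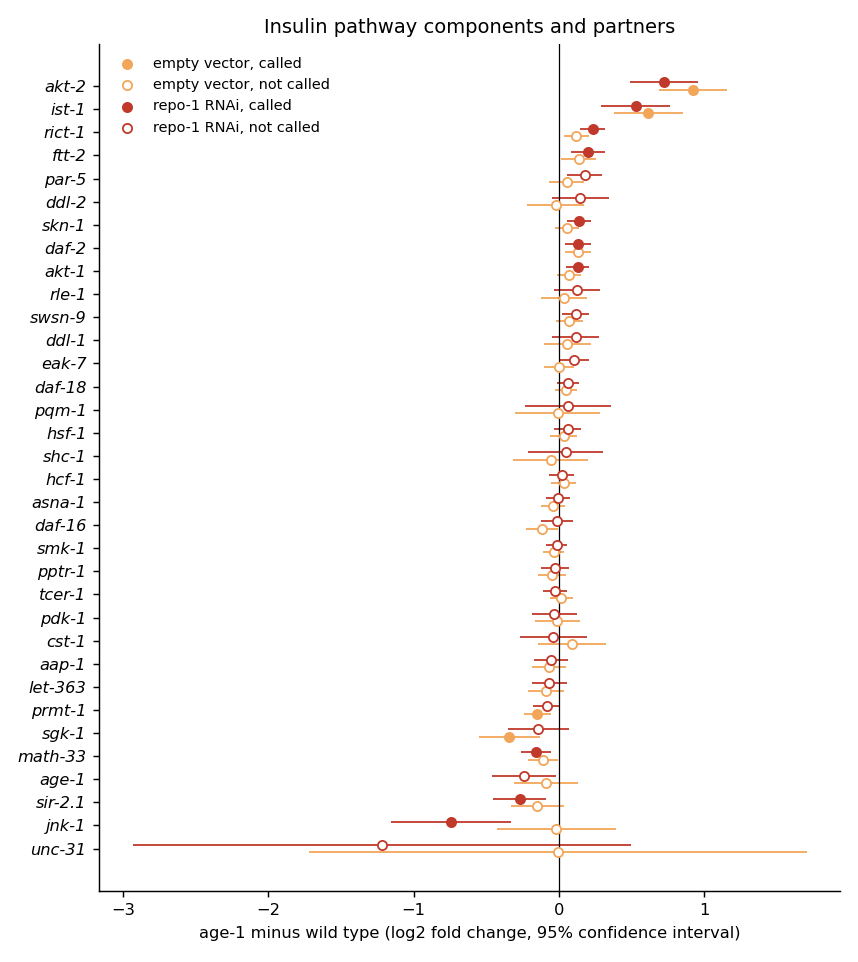
Log2 fold change of age-1 over wild type for the 34 insulin pathway genes tested, on repo-1 RNAi in red and on empty vector in orange, with 95% confidence intervals. Filled points were called and open points were not. akt-2 and ist-1 stand highest under both treatments, and unc-31 has the widest interval.

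Over the whole comparison, 899 genes rose and 563 fell in age-1 on RNAi. Most changes were small, with 1040 of the 1462 calls under 1.5-fold and 199 at 2-fold or more, 82 of them higher and 117 lower. Of the called genes, 926 had a locus name and 536 only a sequence name. In 1084 of them the 4 mutant values did not overlap the 4 wild type values. Among all genes tested, 8.32% had mutant values all higher and 6.67% all lower. Without age-1 replicates 1 and 2, 501 genes were called, 329 higher and 172 lower, 431 of them among the 1462. Of the 1462, 1459 kept their sign, with a median of 0.24 for those that had risen and -0.29 for those that had fallen, against 0.32 and -0.46 with all libraries. Within batches 3 and 4 there were 402 calls, 337 of them shared, and within batches 1 and 2 there were 2154, of which 1053 were shared.

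Genes known to rise when DAF-16 is active were raised in age-1 on RNAi. Of 59 such genes, 51 were tested, and 34 rose and none fell, beside 7.29% of all genes that rose. The median log2 fold change of the 51 was 0.64, and without replicates 1 and 2 it was 0.60 with 30 rises and no fall. With the replicate number, which is the batch, as a block, 36 rose and 2 fell. The list medians in the 4 mutant libraries were 0.74, 0.61, 0.59 and 0.59. The 8 members not tested, old-1, pud-1.1, hsp-12.6, scl-1, lipl-4, hsp-16.49, hsp-16.41 and hsp-16.1, were under the minimum mean of 10 counts. The counts of this list were known from earlier results on these data when it was used. Its members include the pud genes, sod-3, the catalase genes, pck-1, gpd-2 and gpd-3. These are counted again in their own lists below, so those lists are not separate from this one.

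lea-1 (WBGene00002263, V:10011923-10028168, plus strand) encodes a late embryogenesis abundant protein, of a family known for protection against drying. It had 30906, 31632, 31484 and 30137 counts in age-1 and 6504, 7033, 6617 and 7137 in wild type. The groups lay far apart, with a log2 fold change of 2.19 ± 0.074 (4.55-fold, adjusted p = 1.09e-22). On empty vector the change was 2.13, and the 95% interval of the difference between the treatments was -0.16 to 0.27.

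Of 18 metal and iron genes tested, 2 rose and 1 fell, beside 7.29% and 4.57% of all genes, with a median of -0.16. Without replicates 1 and 2 the same 2 rose and none fell. The metallothionein mtl-1 had 94.7, 129.5, 107 and 75.4 counts in age-1 and 16, 25.7, 17.4 and 12.59 in wild type, a rise of 2.46 ± 0.34 (5.48-fold, adjusted p = 2.41e-06). The ferritin heavy chain gene ftn-1 had 264, 198, 74.2 and 87.3 counts against 15.1, 17.8, 18.3 and 18.5, a rise of 2.90 ± 0.40 (7.46-fold, adjusted p = 2.01e-06). Neither of these risen genes overlapped between the genotypes, and for ftn-1 replicates 1 and 2 were the high ones, so that without them its rise was 2.15. The second metallothionein, mtl-2, had 506, 485, 578 and 699 counts against 546, 686, 734 and 854, which overlapped, and its difference of -0.31 was not called (adjusted p = 0.0657). The member that fell was cdr-7, by 0.70 on the log2 scale, with an adjusted p of 0.0491 that was 0.799 without replicates 1 and 2 and 0.0542 with the replicate number as a block.

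dod-3, named for its place downstream of DAF-16, had 586, 662, 414 and 474 counts against 117, 132, 97 and 118, a rise of 2.18 ± 0.30 (adjusted p = 1.79e-06). In wild type the knockdown itself raised dod-3, which had 20.7 to 31.2 counts on empty vector. nnt-1, the mitochondrial transhydrogenase that makes NADPH, had 107, 132, 98.9 and 100.2 counts against 31.1, 40.5, 32.9 and 32.7, a rise of 1.64 ± 0.18. The linker histone variant hil-1 rose by 1.39 ± 0.13 and the small heat shock protein gene sip-1 by 0.88 ± 0.062. All 3 separated the genotypes without overlap. The antimicrobial genes lys-7, a lysozyme, and spp-1, a saposin-like protein, rose by 0.74 ± 0.16 and 1.08 ± 0.15.

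Members of the list that did not pass included sodh-1, an alcohol dehydrogenase, at 0.57 (adjusted p = 0.0514), dod-6 at 0.08 (adjusted p = 0.653) and the desaturase fat-5 at 0.14 (adjusted p = 0.566). fat-5 had risen by 0.57 on empty vector. The difference between the treatments for fat-5 was -0.42, and it was not called. The lowest value of the list was that of the heat shock gene hsp-16.2, at -2.07 with a mean of 1.57 counts in age-1 and 7.74 in wild type, and it was not called (adjusted p = 0.0547). With the replicate block, calls were added for the falls of hsp-16.2 and mtl-2 (adjusted p = 0.0221 and 0.0449) and for the rises of sodh-1 and sams-5 (adjusted p = 0.0482 and 0.0451).

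**Figure D3:**
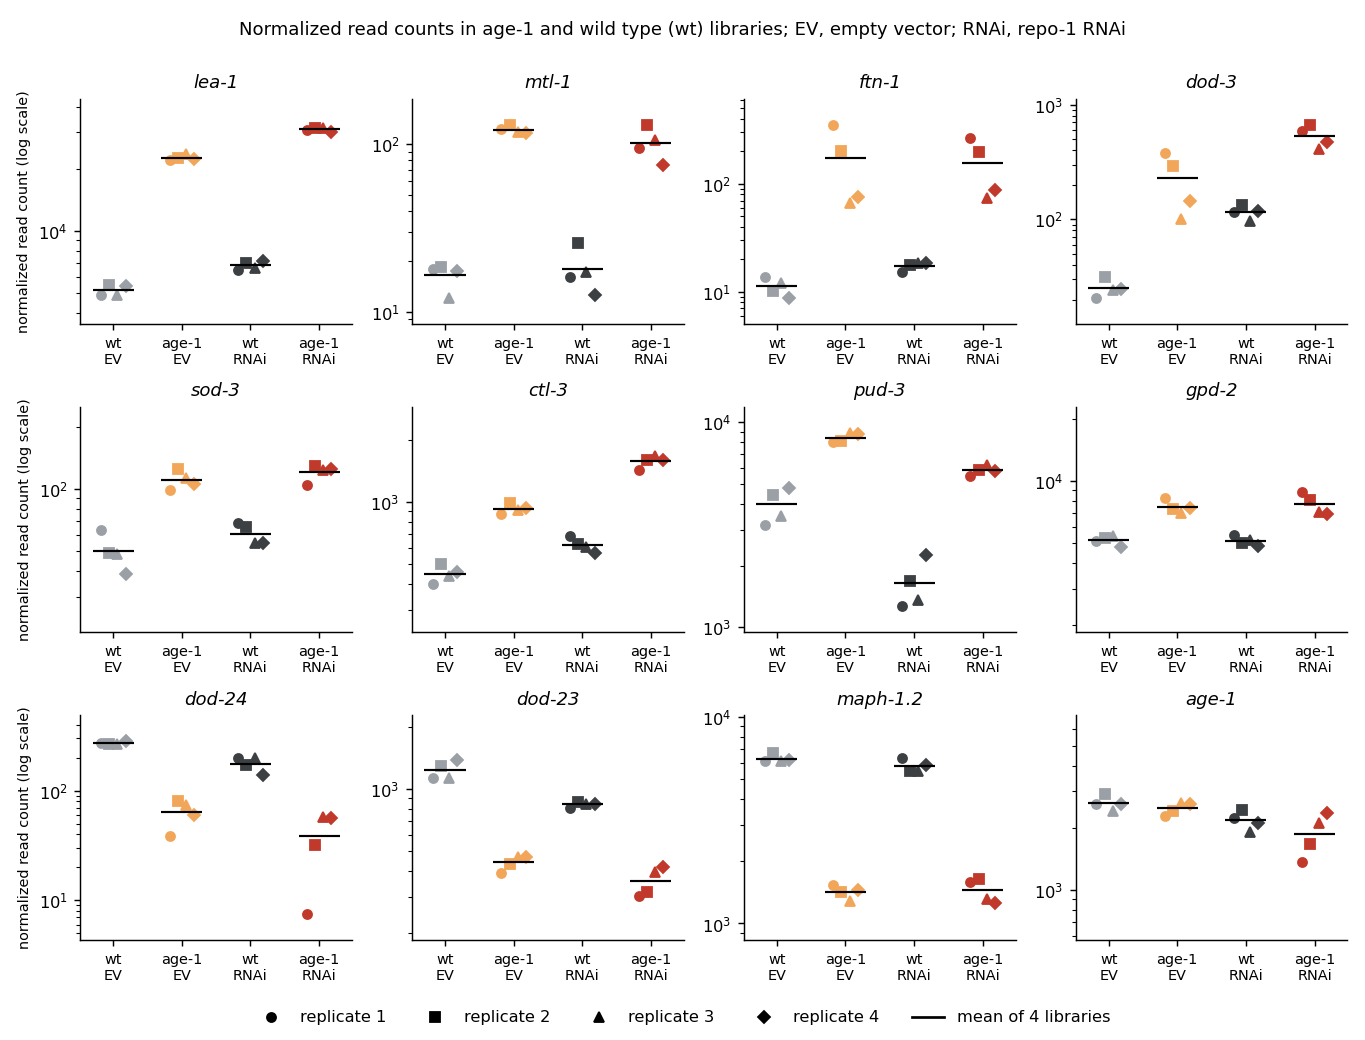
Normalized read counts of 12 genes in each library of 4 groups, on log axes that differ between panels. Marker shape gives the replicate and the line the mean of 4 libraries. lea-1, mtl-1, ftn-1, dod-3, sod-3, ctl-3, pud-3 and gpd-2 are higher and dod-24, dod-23 and maph-1.2 lower in age-1 on RNAi without overlap, while age-1 itself overlaps.

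The pud genes, named for proteins that are raised in daf-2 mutants, lie together between V:2322038 and V:2329954. All 5 members above the minimum rose, beside 7.29% of all genes, with a median of 1.23. They also rose without replicates 1 and 2, with a median of 1.32. pud-3 had 5462, 5866, 6178 and 5772 counts in age-1 and 1270.4, 1689, 1365 and 2243 in wild type, a rise of 1.86 ± 0.26 (3.63-fold, adjusted p = 3.18e-06). pud-4 rose by 1.95 ± 0.26 and pud-1.2 by 0.99 ± 0.16. The wild type values varied more than those of the mutant, with replicates 2 and 4 higher than replicates 1 and 3 in each of these genes. pud-2.1 and pud-2.2 had nearly the same count in every library and both rose by 1.23, so their reads cannot be assigned to either copy. On empty vector the pud median was 0.84. For pud-3 the effect on RNAi exceeded that on empty vector by 0.76, with an interval of 0.01 to 1.51, and this was not called (adjusted p = 0.847).

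Of 7 superoxide dismutase and catalase genes tested, 6 rose and none fell, beside 7.29% and 4.57% of all genes. Their median was 0.55, and the same count was found without replicates 1 and 2. These enzymes remove superoxide and hydrogen peroxide. The mitochondrial enzyme gene sod-3 had 105, 129.5, 122.7 and 124 counts in age-1 and 67.9, 65.2, 54.9 and 54.6 in wild type, which did not overlap (log2 0.98 ± 0.17, 1.97-fold, adjusted p = 0.000107). The cytosolic enzyme gene sod-1 rose by 0.39 ± 0.048. The 3 catalase genes lie side by side between II:14299556 and II:14310779. ctl-3 had 1433, 1598, 1674 and 1589 counts against 686, 629, 603 and 563, a rise of 1.34 ± 0.090 (adjusted p = 1.06e-13), while ctl-2 rose by 0.64 and ctl-1 by 0.55. None of the 3 overlapped between the genotypes.

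Genes of sugar metabolism rose together. Of 24 glycolysis and gluconeogenesis genes, 16 rose and none fell, beside 7.29% and 4.57% of all genes, with a median of 0.26. Without replicates 1 and 2 there were 11 rises and a median of 0.17. The list medians in the 4 mutant libraries were 0.35, 0.33, 0.21 and 0.13, higher in replicates 1 and 2. pck-1, a phosphoenolpyruvate carboxykinase at the entry to glucose synthesis, had 4558, 4738, 3802 and 3585 counts against 2624, 2536, 2592 and 2638. It rose by 0.67 ± 0.085 and pck-2 by 0.57 ± 0.037, both without overlap between the genotypes. The neighbouring glyceraldehyde phosphate dehydrogenase genes gpd-2 and gpd-3 (X:3112091-3114689) rose by 0.58 ± 0.064 and 0.52 ± 0.061, and near-identical stretches of the pair could share reads. fbp-1, which removes a phosphate in glucose synthesis, rose by 0.45 ± 0.051.

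The glyoxylate and citric acid cycle list rested more on the libraries that stood apart. Of its 25 genes 15 rose and none fell, beside 7.29% and 4.57% of all genes, with a median of 0.16. Without replicates 1 and 2 there were only 2 rises and a median of 0.05. The medians in the 4 mutant libraries were 0.25, 0.25, 0.08 and 0.03. icl-1, which carries both enzymes of the glyoxylate shunt, had 4759.7, 5175, 3130.2 and 3043 counts against 2287, 2195, 2368 and 2087. The groups did not overlap and the rise was 0.81 ± 0.17, but it was 0.47 without replicates 1 and 2 and no longer called (adjusted p = 0.185). Rises of 0.36, 0.26 and 0.24 were called for mdh-1 (malate dehydrogenase), sdha-1 (a subunit of succinate dehydrogenase) and aco-2 (aconitase). The same libraries had the higher ribosomal protein medians given above, and the part of that shift in these rises was not tested.

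Trehalose and glycogen genes gave 6 rises and 1 fall among 16, beside 7.29% and 4.57% of all genes. The trehalose phosphate synthases tps-1 and tps-2 rose by 0.39 ± 0.072 and 0.37 ± 0.099, glycogen phosphorylase pygl-1 by 0.39 ± 0.049 and glycogenin gyg-2 by 0.36 ± 0.054. Without replicates 1 and 2 there were 3 rises and no fall. For tps-2 the change was then 0.17 and not called. On empty vector 6 rose and 1 fell.

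Fat metabolism moved in both directions. Of 69 genes of fatty acid activation and beta oxidation, 10 rose and 3 fell, beside 7.29% and 4.57% of all genes, and 5 rose and 1 fell without replicates 1 and 2. The acyl-CoA synthetase acs-3 had 421, 312, 317 and 299.7 counts against 147, 143, 171 and 166 and rose by 1.09 ± 0.14 (adjusted p = 4.37e-07). The acyl-CoA oxidase acox-1.4 rose by 0.84 ± 0.11 and hacd-1, a hydroxyacyl-CoA dehydrogenase, by 0.49 ± 0.13, while acdh-2, an acyl-CoA dehydrogenase, fell by 0.95 on the log2 scale. The lysosomal lipase lipl-1 had 583, 525, 467 and 390.0 counts against 158, 210.4, 200.3 and 255, a rise of 1.25 ± 0.31 that was not called without replicates 1 and 2 (adjusted p = 0.13). The fatty acid binding protein gene lbp-7 fell by 0.59 on the log2 scale. Of 22 methionine cycle and phosphatidylcholine genes, 4 fell and none rose, and 2 fell without replicates 1 and 2. Among them sams-1, which makes S-adenosylmethionine, had 3424, 3651, 4437 and 4118 counts against 5716, 5462, 5404 and 5307 (log2 -0.49 ± 0.087, adjusted p = 0.000116), and methionine synthase metr-1 fell by 0.16.

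Genes known to fall when DAF-16 is active were less uniform. Of 18 such genes 16 were tested, and 6 fell and 2 rose, beside 4.57% and 7.29% of all genes. The median was -0.50, with -0.75 and -0.73 in mutant replicates 1 and 2 and -0.24 and -0.11 in replicates 3 and 4. Without replicates 1 and 2 there were 2 falls and 1 rise and the median was -0.18. dod-24, an immune gene with a CUB-like domain, had 7.48, 31.8, 58 and 56.6 counts in age-1 and 197, 171, 199 and 139 in wild type. The groups lay apart, with a log2 fold change of -2.50 ± 0.32 (5.65-fold lower, adjusted p = 7.41e-07) that was -1.59 without replicates 1 and 2. The lowest value belonged to the shallowest library.

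dod-23 had 304, 316, 397 and 418 counts against 810.2, 863, 846 and 848, which did not overlap, and it fell by 1.24 ± 0.14 on the log2 scale (2.37-fold lower, adjusted p = 2.41e-08). It kept its call without replicates 1 and 2. dod-17, dod-22, dod-19 and the intestinal peptide transporter pept-1 fell by 1.11, 1.06, 0.59 and 0.74 on the log2 scale and lost their calls without those libraries. dod-24, dod-22 and dod-17 lie within IV:12940106-12978343. The members that rose were the thermosensory guanylyl cyclase gcy-18, at 1.03 ± 0.25, and the yolk protein gene vit-2, at 0.28 ± 0.089. vit-2 had 797935, 838252, 645453 and 636203 counts against 591954, 599941, 564879 and 628330.0, with replicates 1 and 2 well above the others, and its change of 0.10 without them was not called.

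Among named genes outside these lists, several rose by more than 2-fold in every replicate. dmd-9, a DM-domain transcription factor gene, had 809.9, 721, 701 and 708 counts against 225, 237, 210.4 and 217 (log2 1.72 ± 0.074, 3.29-fold, adjusted p = 2.32e-19). scb-1 had 209, 211, 238 and 279.9 counts against 67, 80, 66.8 and 61.3, a rise of 1.75 ± 0.11. The globin gene glb-1 had 1226, 1027, 985 and 1050.0 counts against 452, 391, 439 and 447, a rise of 1.31 ± 0.091. The groups of each of these genes lay well apart, and the changes on empty vector were 1.65, 1.71 and 1.16. The saposin-like gene spp-2 rose by 1.65, the fatty acid and retinol binding protein gene far-3 by 1.5, the immunoglobulin and leucine-rich repeat gene iglr-3 by 1.28, the chondroitin proteoglycan gene cpg-7 by 1.27 and the transthyretin-related gene ttr-26 by 1.26. asm-3, an acid sphingomyelinase, rose by 1.25 ± 0.36 and was not called without replicates 1 and 2 (adjusted p = 0.219).

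A steady fall was that of maph-1.2, a microtubule-associated protein homolog. It had 1579.9, 1651, 1317 and 1263 counts in age-1 and 6297, 5483, 5452 and 5839 in wild type, 3.99-fold lower (log2 -1.995 ± 0.068, adjusted p = 1.09e-22). On empty vector its change was -2.14. The glucuronosyltransferase ugt-64 had 389, 264, 279.7 and 279 counts against 884, 918, 919 and 906, which did not overlap (log2 -1.60 ± 0.14). The nematode-specific peptide genes nspc-14, nspc-1 and nspc-4 fell by 1.46, 1.02 and 0.87 on the log2 scale, and near-identical copies of this family could share reads. gakh-1, a homolog of the cyclin G-associated kinase, fell by 0.98, the C-type lectin clec-10 by 1.09 and the cadherin cdh-3 by 0.82 on the log2 scale. For each of these genes the effect on empty vector had the same sign and was called.

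Some genes that were lower in age-1 on RNAi were not called on empty vector. clec-266, a C-type lectin gene, had 368, 249, 385 and 237 counts in wild type on empty vector and 1432, 1802, 1412 and 1788 on RNAi. In age-1 it had 572, 544, 291 and 319.7 on empty vector and 568, 898, 876 and 1137 on RNAi, so that it lay below wild type on RNAi (log2 -0.92 ± 0.20, adjusted p = 0.00215) and overlapped it on empty vector. unc-75, a neuronal splicing factor, had 37.4, 47, 29.5 and 29.8 counts in age-1 and 73.6, 67.2, 72.3 and 54.6 in wild type on RNAi, and 28.6 to 36.9 and 18.7 to 36.1 on empty vector. dyf-7, of the sensory dendrite matrix, the cuticlin-like gene cutl-16, the Flamingo cadherin fmi-1 and the adhesion gene igcm-1 fell by 1.33, 1.16, 1.09 and 0.83 on the log2 scale on RNAi, and none of them was called on empty vector. The age-1 effect was lower on RNAi than on empty vector by 1.37 for clec-266 (95% interval -1.95 to -0.78) and by 1.14 for unc-75 (-1.70 to -0.59), but neither difference passed adjustment (adjusted p = 0.218 and 0.313). These genes were picked after their values were seen. The effect on RNAi and the change from empty vector to RNAi in wild type share the same wild type RNAi libraries, so high values there enter both.

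Immune gene families moved in both directions. Of 43 lysozyme, saposin-like and other antimicrobial genes tested, 11 rose and 5 fell, beside 7.29% and 4.57% of all genes. Without replicates 1 and 2, 7 rose and 2 fell. The caenacins cnc-4 and cnc-7 rose by 1.49 ± 0.36 and 1.64 ± 0.41, and irg-5, a gene of the response to infection, had 2.49, 10.2, 10.47 and 5.95 counts against 20.7, 35.6, 23.8 and 37.8 (log2 -1.99 ± 0.35). The epidermal antimicrobial peptide genes nlp-29 and nlp-31 rose by 1.35 ± 0.27 and 1.19 ± 0.26, with replicates 1 and 2 the higher ones, and lost their calls without them. Of 80 C-type lectins, 4 rose and 12 fell, and without replicates 1 and 2 these counts were 2 and 5.

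Of 10 osmotic response genes, 5 rose and 1 fell, beside 7.29% and 4.57% of all genes. Without replicates 1 and 2, 3 rose and 1 fell. The inositol transporter hmit-1.1 had 62.3, 88.9, 63.7 and 82.4 counts against 23.6, 27.7, 29.3 and 26.9, which did not overlap (log2 1.42 ± 0.21, adjusted p = 4.91e-06), and osm-11, a secreted Notch coligand, rose by 0.43 ± 0.058. osr-1 had 0, 6.35, 2.85 and 6.95 counts against 15.1, 27.7, 17.4 and 16.8 and fell by 2.35 ± 0.39 on the log2 scale, at levels of a few reads. Of 45 transthyretin-related genes, 14 rose and none fell, and 12 without replicates 1 and 2. ttr-5 had 287, 356, 311 and 333 counts against 158, 195, 163 and 207, a rise of 0.83 ± 0.097. ttr-7 and ttr-33 rose by 0.74 and 0.68.

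Detoxification and protease genes followed. Of 32 glutathione transferase genes, 7 rose and 1 fell, beside 7.29% and 4.57% of all genes. Without replicates 1 and 2, 5 rose and none fell. gst-29 rose by 1.69 ± 0.31 from 9.28 to 30.8 mean counts, and gst-10 by 0.58 ± 0.11. Of 42 genes of short-chain and other dehydrogenases, 12 rose and none fell, and 8 rose and none fell without replicates 1 and 2. The short-chain dehydrogenase dhs-9 had 466, 518, 493 and 474 counts against 305, 312, 267.1 and 269, without overlap (log2 0.76 ± 0.073, adjusted p = 1.07e-09). Of 44 lysosomal protease and proton pump genes, 9 rose and 1 fell, and 2 rose and 3 fell without replicates 1 and 2. The aspartyl protease genes asp-8 and asp-17 moved apart. asp-8 rose by 0.79 ± 0.11 and asp-17 had 17.4, 22.9, 30.4 and 32.8 counts against 90.5, 71.1, 63.1 and 69.7 (log2 -1.5 ± 0.19, adjusted p = 3.44e-07). Of 90 neuropeptide genes tested, 7 rose and 4 fell, and none rose and 3 fell without replicates 1 and 2. Among those that fell with all libraries, flp-8 did so by 1.02 ± 0.13 on the log2 scale.

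**Figure D4:**
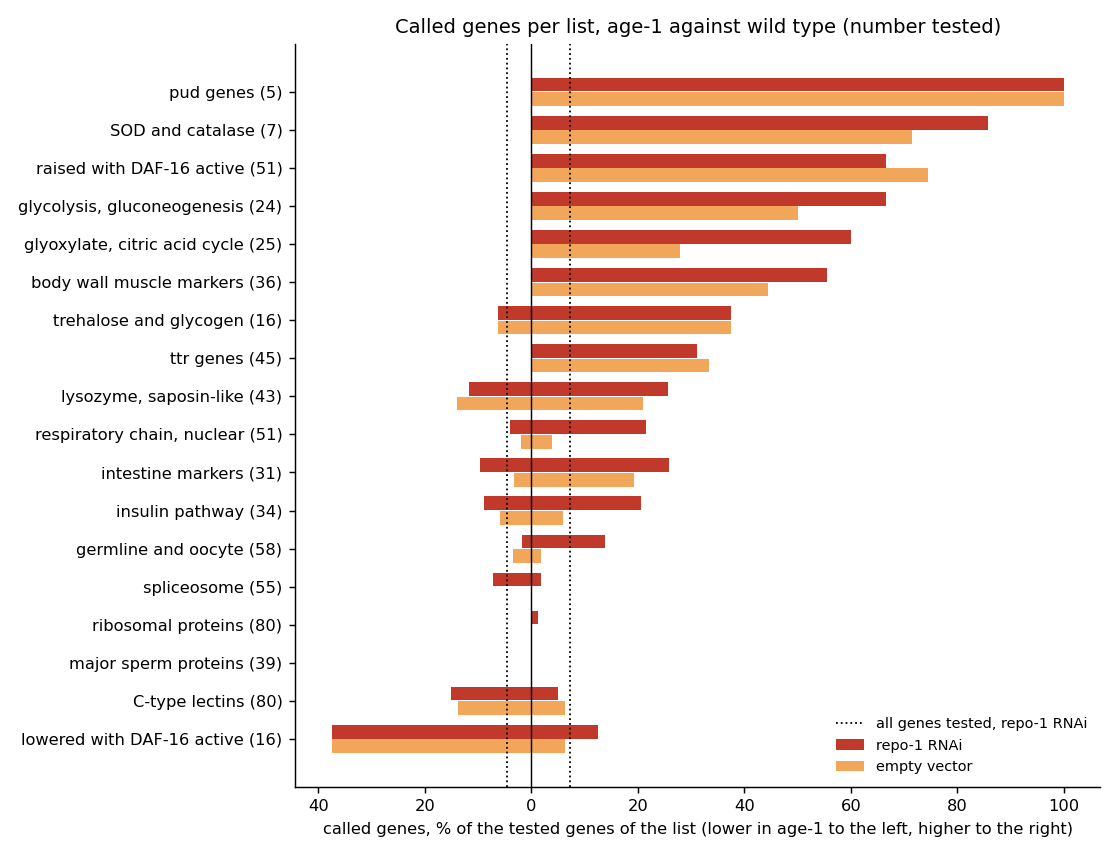
Called genes as a percentage of the tested genes of each list, with rises to the right and falls to the left, on repo-1 RNAi in red and on empty vector in orange. Dotted lines mark the shares over all genes tested on RNAi, 7.29% higher and 4.57% lower, and numbers in brackets give the genes tested. The pud, SOD and catalase, DAF-16 and glycolysis lists extend farthest to the right under both treatments. These lists overlap, and the pud genes, sod-3, the catalase genes, pck-1, gpd-2 and gpd-3 are also on the DAF-16 raised list.

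Markers of body wall muscle rose as a group. Of 36 such genes 20 rose and none fell, beside 7.29% and 4.57% of all genes, with a median of 0.26. Without replicates 1 and 2, 9 rose with a median of 0.18, beside 329 rises among all 12327 genes. Their summed level was 260118 to 322485 counts in the 4 mutant libraries and 215711 to 252986 in wild type, which did not overlap. The muscle myosin gene myo-3 had 3663, 3065, 3547 and 3179 counts against 2837, 2405, 2783 and 2229 (log2 0.39 ± 0.087, adjusted p = 0.00182), and troponin gene tni-3 rose by 0.40 ± 0.070. On empty vector 16 of the 36 rose and none fell, beside 4.76% and 3.72% of all genes. In whole animals, more cells of a tissue and more RNA per cell cannot be told apart, and the part of this shift in other results was not tested.

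Intestinal markers gave 8 rises and 3 falls among 31, beside 7.29% and 4.57% of all genes. Without replicates 1 and 2 they gave 5 rises and no fall. Their median was 0.01 and turned to -0.01 under quantile normalization. Their summed levels overlapped, at 113477 to 133051 counts in age-1 and 114652 to 119018 in wild type. The gut esterase gene ges-1 stood out with 797, 643, 721 and 652 counts against 385, 418, 414 and 389.6 (log2 0.80 ± 0.063, adjusted p = 7.06e-12). Of 58 germline and oocyte genes, 8 rose and 1 fell. The numbers were 1 and 1 without replicates 1 and 2, and 19 and 1 without replicate 4 alone. The one that fell in both was oma-2, needed for oocyte maturation, with 6895, 7506, 6763 and 6749.7 counts against 10234, 9904, 10209 and 10215 (log2 -0.54 ± 0.044, adjusted p = 2.43e-11), and egg-4, of the oocyte to embryo transition, rose by 0.25. tbh-1, which makes octopamine and is expressed in the gonadal sheath, had 2878, 2598, 1242 and 1239 counts against 969.6, 1066, 1025 and 1505, so that its rise of 0.71 came with replicates 1 and 2 and was 0.14 without them.

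No sperm gene was called among 39 major sperm protein genes and 39 other sperm genes. The sperm lists together held 0.0534% ± 0.0184 (SD, n = 4) of the reads in age-1 and 0.0499% ± 0.00742 (SD, n = 4) in wild type, and an exact two-sided permutation test gave p = 0.743, where the smallest p possible was 0.0286. The median of the major sperm protein genes was -0.80 in mutant replicate 2 and 0.73 in replicate 3, and it was -0.45 within batches 1 and 2 and 0.68 within batches 3 and 4. Of 80 ribosomal protein genes, 1 rose. Without age-1 replicate 4 there were 49 rises and without replicate 3 there were 8, within batches 1 and 2 there were 68, and none was called without replicates 1 and 2 or with the replicate number as a block. Their median was 0.26 within batches 1 and 2 and -0.07 within batches 3 and 4, and over all libraries it turned from 0.10 to -0.03 under quantile normalization. Of 51 nuclear respiratory chain genes, 11 rose and 2 fell, beside 7.29% and 4.57% of all genes. None was called in either direction without replicates 1 and 2, and 25 rose without replicate 4.

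Of 55 spliceosome genes, 1 rose and 4 fell, beside 7.29% and 4.57% of all genes, and without replicates 1 and 2 none rose and 1 fell. Their median was 0.03, and it was -0.03 without those libraries and -0.02 under quantile normalization. eftu-2, a GTPase of the U5 particle, had 4448, 4774, 4988 and 4918 counts against 5422, 5556, 5543 and 5539.7 (log2 -0.21 ± 0.036, adjusted p = 7.84e-05). uaf-1, the large subunit of U2AF, rose by 0.19 with overlapping groups. Of 28 SR and hnRNP genes, hrpf-1 and rsp-5 rose by 0.19 and 0.24 and unc-75 fell, and without replicates 1 and 2 none rose and 2 fell. Among 9 genes of nonsense-mediated decay, the endonuclease gene smg-6 had 4022, 3927, 3381 and 3244 counts against 2666, 2608, 2709.6 and 2671, without overlap (log2 0.45 ± 0.058, adjusted p = 8.19e-07), while the kinase gene smg-1 and smg-3 fell by 0.31 and 0.16 on the log2 scale, and 1 of the 9 rose and none fell without replicates 1 and 2. The files hold counts per gene, and splice isoforms were not analysed here.

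The mutant's effect on RNAi was set beside its effect on empty vector, which rests on other libraries. On empty vector 1045 genes were called, 8.48% of those tested, 587 higher (4.76%) and 458 lower (3.72%). Of these, 602 were called in the same direction on RNAi and 1 in the opposite direction. The 602 were 57.6% of the empty vector calls and 41.2% of the RNAi calls. Of the 1045, 1009 (96.6%) had the same sign on RNAi, against 70.4% of all genes. The genes raised on empty vector had a median of 0.44 there and 0.38 on RNAi, and those lowered had -0.47 and -0.27. These genes were chosen for their values on empty vector, so the smaller medians on RNAi do not measure a loss of effect.

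A test of the difference between the treatments called 1 gene, 0.00811% of those tested. At an unadjusted p under 0.05 there were 695 genes (5.64%), edgeR called 1 and DESeq2 8. A limma fit of the compared groups alone called 0, with 659 genes at an unadjusted p under 0.05. The called gene was drd-50, whose name stands for a gene lowered by dietary restriction. It lies under the minimum for naming and is named because the count is 1. It had 7.8, 9.22, 2.2 and 6.97 counts in age-1 and 25.8, 49.7, 46.1 and 51.2 in wild type on empty vector. On RNAi it had 32.4, 34.3, 41.9 and 61.5 in age-1 and 46.2, 58.3, 52.1 and 50.4 in wild type. The genotypes thus lay apart on empty vector (log2 -2.63) and overlapped on RNAi (log2 -0.32), and the difference was 2.31 with a 95% interval of 1.55 to 3.07 (adjusted p = 0.00549). drd-50 lost this call in the fit of the compared groups alone (adjusted p = 0.442) and within batches 1 and 2 (a difference of 1.34, adjusted p = 0.23).

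For the DAF-16 list, 38 of the 51 tested rose on empty vector, with a median of 0.69, and all 34 that rose on RNAi were among them. nnt-1 rose by 2.43 on empty vector and 1.64 on RNAi, a difference of -0.79 with an interval of -1.3 to -0.28 that was not called (adjusted p = 0.551). ctl-3 rose by 1.05 on empty vector and 1.34 on RNAi. Over all genes tested, the median SE of the difference between the treatments was 0.16 on the log2 scale, and single genes differed from this median. Differences as large as that of nnt-1 did not pass adjustment. A p that misses the threshold does not show that the effect was equal.

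**Figure D5:**
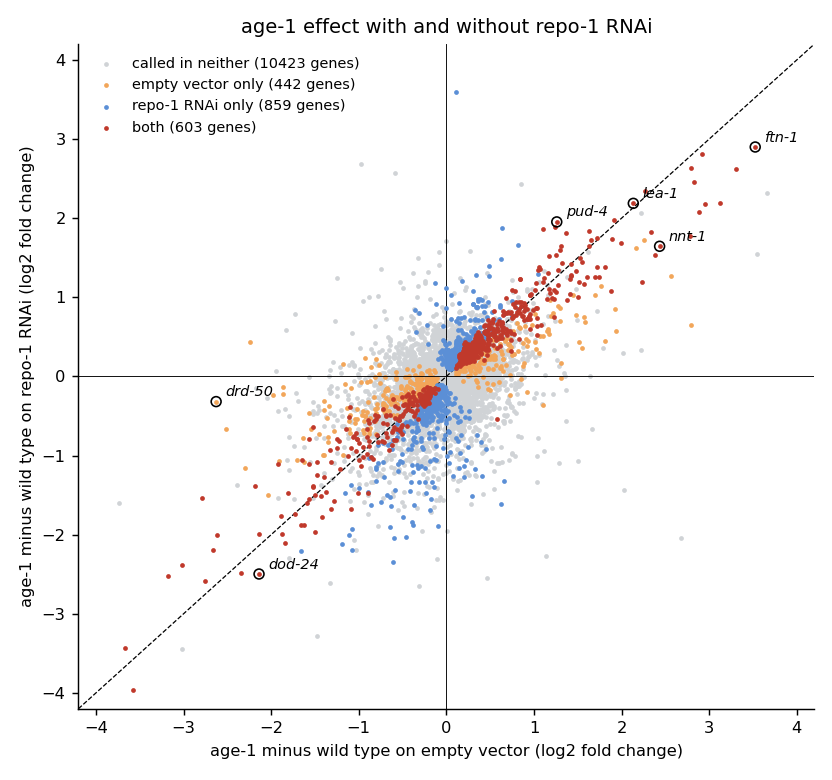
Log2 fold change of age-1 over wild type on empty vector (horizontal) and on repo-1 RNAi (vertical) for the genes tested, coloured by where they were called. The dashed line marks equal effects and 7 genes lie outside the axes. Genes called under both treatments (red) lie near the line, but they were chosen by passing the threshold on both axes. Their place is therefore no test of equal effects. drd-50 lies low on the horizontal axis and near 0 on the vertical one.

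The other mutants on RNAi were compared with the same 4 wild type libraries, so their values are given side by side. lea-1 stood at 2.19 in age-1 and at -0.0066, -0.0047 and -0.071 in eat-2, raga-1 and clk-1. maph-1.2 stood at -1.995 in age-1 and at -0.17, -0.83 and -0.09. pud-3 stood at 1.86 in age-1 and 2.03 in raga-1, and at -1.23 in eat-2 and -3.23 in clk-1. dod-24 stood at -2.50 in age-1 and at 2.15, 1.93 and -0.14 in the others. On the DAF-16 raised list, 24 of 51 rose and 10 fell in eat-2, where 23.4% and 23.5% of all genes did so. In raga-1 38 rose and 4 fell (40.5% and 38% of all genes), and in clk-1 29 rose and 11 fell (29.3% and 29%). Of the 36 body wall muscle markers, 30, 33 and 19 rose and 0, 2 and 3 fell in eat-2, raga-1 and clk-1. Of the 24 glycolysis and gluconeogenesis genes, 5, 17 and 17 rose and 4 fell in each of these mutants. The share of all tested genes called in either direction was highest for raga-1 at 78.5%, followed by clk-1 at 58.3% and eat-2 at 46.9%.

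A direct test of age-1 against the mean of the other mutants on RNAi does not use the wild type libraries. It called 8693 genes, 70.5% of those tested, 4227 higher (34.3%) and 4466 lower (36.2%), so single calls in it carry little. By quantile normalization it called 7509, 4527 higher and 2982 lower. lea-1 was higher in age-1 than in that mean by 2.21 ± 0.061, asm-3 by 3.39 ± 0.30, pud-3 by 2.67 ± 0.21 and glb-1 by 1.2 ± 0.074. maph-1.2 was lower by 1.63 and dod-24 by 3.81 on the log2 scale. ftn-1 at 0.48 ± 0.33 and scb-1 at -0.10 ± 0.089 were not called (adjusted p = 0.185 and 0.331), and both had risen in clk-1 and raga-1 as well. Of the DAF-16 raised list, 21 were higher and 23 lower in age-1 than in the mean of the others, with a median of -0.15.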

How the data were processed

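The deposited values were a normalized signal, gene counts divided by a size factor per library by the authors. DESeq2, Salmon 0.14.2, STAR, FastQC 0.11.8, MultiQC and the build WBcel235 are listed, without roles, per the submitters' processing notes. Per the labels' protocols, the RNA came from a Qiagen miRNeasy extraction and the libraries from the Roche Kapa stranded mRNA HyperPrep kit. Whether counting used the strand is not given in the sources used here, so overlapping and near-identical genes may share reads. The table held 20956 genes, and all 40 columns were matched to libraries. Every column, divided by its lowest nonzero entry, gave whole reads within 0.01 for 100% of the values. In clk-1 RNAi replicate 1 and age-1 RNAi replicate 4 the step was near 1 and the check carried little information. Positions came from Ensembl release 115, which held 20896 of the identifiers, and names from the files.

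Values were analysed as log2(value + 1) for 12327 genes, those whose mean over the 40 libraries reached 10. limma 3.58.1 in R 4.3.3 fitted 1 mean per group to all 40 libraries with an intensity trend. Folds are on that scale and understate changes of low genes. Tested on simulated data, the RNAi comparison recovered 64% of genes changed 1.5-fold, 82% at 2-fold and 100% at 4-fold. The simulation held no shift of age-1 replicates 1 and 2 and changed no gene near the minimum mean. Recovery in the real libraries could therefore be lower. Alternatives were edgeR 4.0.16 and DESeq2 1.42.0 on recovered reads, other scalings, pseudocounts, filters, batches, library weights and libraries left out. Library numbers equal batches in the labels, which pairs the samples, and residual correlations of same-numbered RNAi libraries were 0.051, 0.021, 0.081 and -0.034.

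The comparison and gene lists were chosen with earlier results of these data known. The named genes were repo-1 and age-1, the 15 largest rises and falls among called genes with a locus name, a mean of at least 100 and groups that did not overlap, up to 5 called members of each list, and any member of the insulin and DAF-16 lists. Sequences were not used here.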

Additional observations from a re-analysis of the deposited data

Results flagged for a closer look

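Of 256 groups of 4 libraries checked for a library far from the others, 15 had one, and chance alone flags about 1 in 20 groups. In age-1 on RNAi these were akt-1 in replicate 2 (3498 counts), ctl-2 in replicate 3 (1250 counts), asp-8 in replicate 3 (502.3), metr-1 in replicate 4 (4766), and, in replicate 1, ugt-64 (388.8), cdh-3 (69.78) and acs-3 (421.1). In wild type on RNAi they were spp-1 (199.8), gcy-18 (30.23) and far-3 (82.28) in replicate 4, ttr-7 (34.58), oma-2 (9904) and unc-31 (1675) in replicate 2, and metr-1 (5800 counts) and eftu-2 (5422) in replicate 1. Most of these gaps were small in absolute size, and that of unc-31 was not, with the other 3 wild type libraries at 48.101 to 58.5 counts.

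drd-50 was flagged because the age-1 effect differed between the treatments, by 2.309 on the log2 scale (limma, adjusted p = 0.00549). The mutant was lower in 4 of 4 libraries on empty vector.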

How the results depend on the processing

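Leaving out 1 library at a time, calls on RNAi ranged from 788, without age-1 replicate 1, to 2670, without age-1 replicate 4, and were 902 without age-1 replicate 2. Calls on empty vector ranged from 653 to 1313, the difference between treatments from 1 to 3, genes called under both from 453 to 643, and age-1 against the other mutants from 8055 to 8774. Calls on RNAi were 642 in a fit of the compared groups alone, 402 within batches 3 and 4, 2303 with library weights and 501 without age-1 replicates 1 and 2. On empty vector they were 453 within batches 3 and 4 and 1638 with weights. Genes called under both numbered 245 within batches 3 and 4, 909 with weights and 350 without replicates 1 and 2. The difference between treatments called 30 genes within batches 1 and 2, 5 within batches 3 and 4, 8 by DESeq2, 56 with weights, 12 without replicates 1 and 2 and 0 in a fit of the compared groups alone, where drd-50 lost its call. The cause of these shifts was not tested, and the settings that leave libraries out also hold fewer samples. The difference in sperm read share, 0.00342%, ranged from -0.00238% without age-1 replicate 3 to 0.0107%, and was -0.00092% without age-1 replicate 4.

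With the replicate number as a block, 1566 genes were called on RNAi, 1439 of them among the 1462, and drd-50 remained the 1 gene called for the difference between treatments. The block moved the call of 5 of the 127 genes followed, with hsp-16.2, mtl-2, sodh-1 and sams-5 added and cdr-7 lost.

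Single genes turned sign under some settings. age-1 stood at 0.15 within batches 3 and 4 and 0.0375 without age-1 replicates 1 and 2. daf-16 stood at 0.0165 within batches 1 and 2, and between -0.0454 and 0.00713 with 1 library left out, at 0.00342 without age-1 replicate 3 and at its highest without age-1 replicate 4. daf-18 stood at -0.0701 under quantile normalization. unc-31 stood at 0.06255 within batches 3 and 4, and between -1.68 and 0.0143 with 1 library left out, the highest without wild type replicate 2. lys-8 stood at -0.0235 within batches 1 and 2 and tbh-1 at -0.0028 within batches 3 and 4. Of 2792 values of the 127 genes over the alternatives, 2521 kept direction and side of the threshold and 237 lost the call, and of 900 list medians 66 moved by more than the spread between libraries. Depth limits genes of a few reads, such as osr-1 and dod-24 in age-1 replicate 1.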

Other observations

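Called genes were spread over the chromosomes, with 10.01% of tested genes called on I, 10.47% on IV, 10.92% on III, 12.19% on II, 13.62% on X and 13.91% on V. Over all genes tested, 7.29% rose and 4.57% fell. Nuclear hormone receptor genes had 5 rises and 4 falls among 155 tested, cytochrome P450 genes 5 and 3 among 55, and glucuronosyltransferase genes 3 and 7 among 52. Without age-1 replicates 1 and 2 these were 1 and 1, 2 and 1, and 1 and 3, and without replicate 4 alone the falls of the receptor and P450 genes were 13 and 9. Of 129 cuticle collagen genes, 8 rose and 1 fell, although their median was -0.24 on the log2 scale, and on empty vector 3 rose and 4 fell with the same median of -0.24. Without age-1 replicates 1 and 2, 1 collagen gene rose and 1 fell. Chaperone genes other than the small heat shock proteins gave 1 rise among 51 and proteasome genes 2 rises among 33, and these were 12 and 11 without age-1 replicate 4 and 0 without replicates 1 and 2. There was 1 fall among 28 autophagy genes. Of 36 ribosome biogenesis factors, 5 fell and none rose, with a median of -0.06, and 1 was called without age-1 replicates 1 and 2.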
